A study of Mus musculus with 6 samples.

Results

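Zinc and copper transport and metallothionein genes were examined in RNA sequencing of mouse pulmonary artery smooth muscle cells (mPASMCs), which were transfected with a control small interfering RNA (si-NC) or with one against the long noncoding RNA Snhg18 (si-Snhg18). The rule that picked the genes used their names and type and no measured value, although the topic was chosen with earlier results of these data known. They were the protein-coding genes of the SLC30 (ZnT) and SLC39 (ZIP) zinc transporter families, the metallothioneins Mt1, Mt2 and Mt3, the zinc sensor gene Mtf1, the copper transporters Slc31a1 and Slc31a2, the copper pumps Atp7a and Atp7b, and the copper chaperones Atox1 and Ccs. This gave 34 of the 55487 genes in the count table, and 26 of the 34 had enough reads to be tested.

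The study asked which genes respond to knockdown of Snhg18 in these cells. Each group held 3 libraries, numbered 1 to 3. The cells were bought from a supplier and transfected with a lipid reagent, and every library came from the same cell type. The oxygen level and the time between transfection and RNA extraction are not given in the sources used here. The labels do not say whether the libraries of a group came from separate cultures, so p-values measure the spread between these libraries, which may be technical.

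Cells keep free zinc very low by moving it across membranes and by binding it. ZnT proteins carry zinc out of the cytosol, either out of the cell or into vesicles, the Golgi and mitochondria, and ZIP proteins carry it into the cytosol. Metallothioneins are small cysteine-rich proteins that bind zinc and copper, and MTF1 is the transcription factor that senses zinc and switches on Mt1, Mt2 and the exporter Slc30a1. Copper enters through CTR1 (Slc31a1), is passed by ATOX1 to the pumps ATP7A and ATP7B in the Golgi, and is delivered to superoxide dismutase 1 by CCS. In the vessel wall, ATP7A is known to supply copper to secreted enzymes of smooth muscle such as lysyl oxidase and extracellular superoxide dismutase.

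Snhg18 itself was at 23.5, 22.4 and 22.2 CPM (reads scaled to a common library total) in the si-NC libraries and at 10.6, 11.2 and 9.97 CPM in the si-Snhg18 libraries, a log2 fold change of -1.10 (adjusted p = 0.0073, edgeR's quasi-likelihood test with Benjamini-Hochberg adjustment). Between 18097718 and 25988746 reads were counted per library, and the limit set for a gene without reads, 3 reads, was worth 0.115 to 0.164 CPM by counting error alone. The libraries numbered 2 stood apart on the same side within both groups on the first principal component, which held 56.5% of the variance. Of the smooth muscle markers, 8 of 8 were tested, and their summed level was 1750 to 1896 CPM in si-NC and 1202 to 1851 CPM in si-Snhg18, with a median log2 fold change of -0.35. Tagln passed as lower, and Myh11, Cnn1 and Des did so as well in a second fit with the library number as a block. Of all tested genes, 3.71% were called lower in the main fit and 13.6% with the block. Summed fibroblast markers were at 2264 to 2957 and 1375 to 2215 CPM, with 5 of 6 tested and a median log2 fold change of -0.36. Col1a1 was the most abundant per length, and Col1a1 and Pdgfra were lower with the block. Endothelial markers summed to 12.4 to 14.0 and 13.3 to 15.4 CPM, with Cldn5 at 0 reads and Tek lower with the block. Of these 6 markers 4 were tested, with a median log2 fold change of 0.28. Epithelial markers summed to 7.24 to 22.7 and 1.19 to 7.42 CPM, with Sftpc and Scgb1a1 at 0 reads. Only 1 of them was tested, Krt18, which was lower with the block. The leukocyte markers summed to 104 to 127 and 59.3 to 65.6 CPM, with Cd53, which passed as lower, at 109 and 50.7 CPM. Adgre1 was at 0 and Ptprc at 1 to 8 reads. Of these 6 markers 4 were tested, with a median log2 fold change of 0.11. The part of these markers in the results below was not tested, and in bulk RNA fewer cells of a type and less RNA per cell cannot be told apart.

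Knockdown of Snhg18 went with lower levels of Slc30a5 and Slc30a7, which load zinc into the secretory pathway, and of the ZIP genes Slc39a9 and Slc39a10, and with a higher level of the copper transporter Slc31a2, while the metallothioneins did not pass the test in either direction. Among the 26 tested genes, 5 had an adjusted p under 0.05, which is 19.2% of them, beside 7.36% of all 14531 tested genes. Slc31a2 was the 1 gene that rose, beside 3.65% of all genes called higher. Slc30a5, Slc30a7, Slc39a9 and Slc39a10 were the 4 that fell, beside 3.71% of all genes called lower. The median log2 fold change (si-Snhg18 over si-NC) was 0.05 over the 26 genes and 0.01 over all genes, and 15 of the 26 had values above 0. In the plot of each gene's change by family, the falls of Slc39a10 and Slc30a7 and the rise of Slc31a2 lie at the ends.

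**Figure D1:**
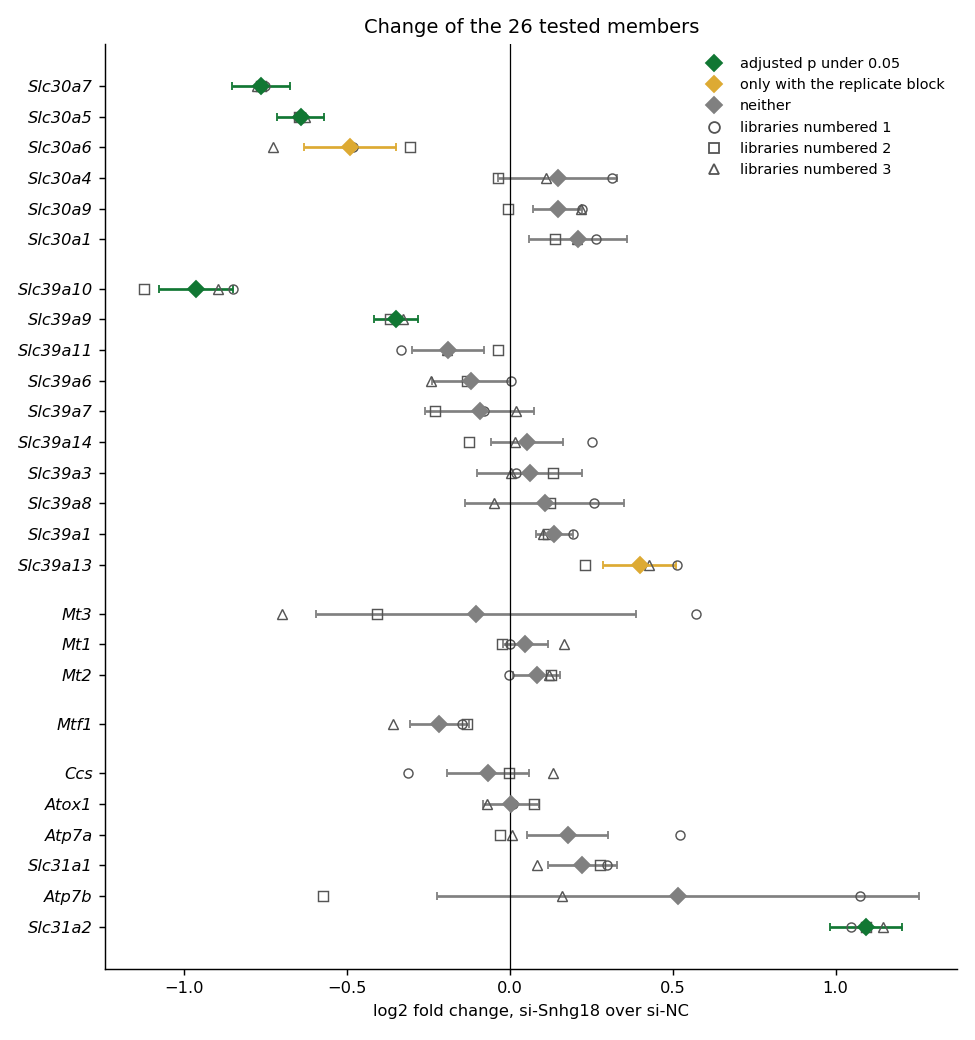
Log2 fold change of each of the 26 tested genes (si-Snhg18 over si-NC, x axis), grouped by family, with diamonds for the edgeR estimate, bars for ± 1 SE and open symbols for the difference between libraries of the same number. Slc30a7, Slc30a5, Slc39a10 and Slc39a9 lie below 0 and Slc31a2 at 1.09, with all 3 open symbols on the same side.

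With the library number as a block, 27.2% of all genes were called, 13.6% higher and 13.6% lower, and so were 7 of the 26 (26.9%), which is close to that background. The added genes were Slc39a13, higher, and Slc30a6, lower. Without regard to a model, the 3 si-Snhg18 values lay entirely above or below the 3 si-NC values for 11 of the 26 (42.3%), 4 higher and 7 lower, beside 30.9% of all tested genes. An exact two-sided permutation test of 3 against 3 libraries cannot give a p under 0.1. Groups that lie fully apart always give that value, so it adds nothing for these 11 genes. The calls did not hold without some single libraries. Without si-NC 1, without si-NC 3 or without si-Snhg18 3, edgeR called 0 of the 26 and 0 of all genes, although 7 of the 26 had an unadjusted p under 0.05 in each of these fits, and 2512, 2731 and 2464 of all genes did.

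**Figure D2:**
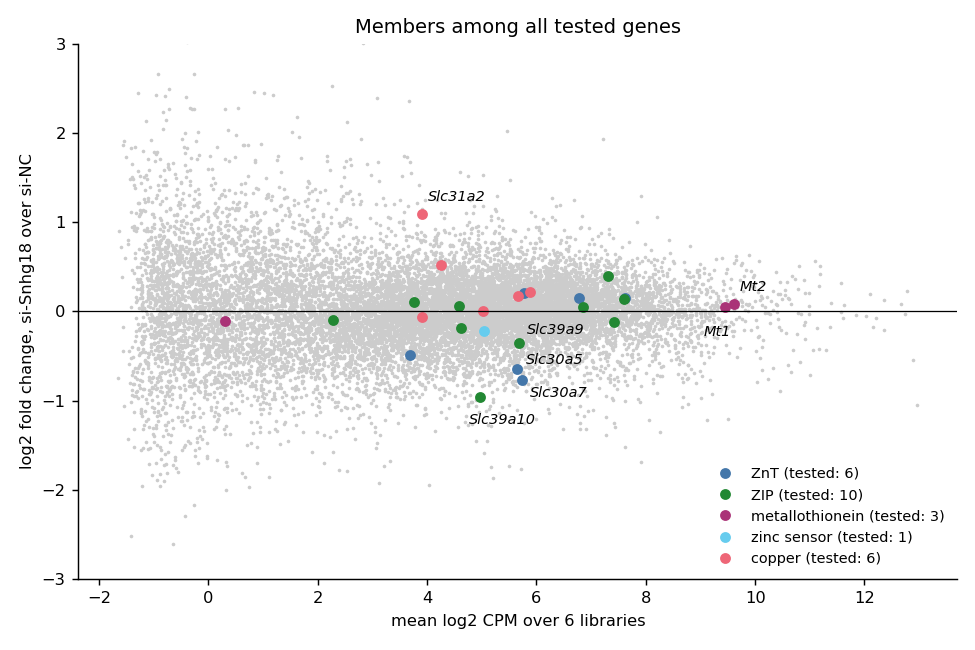
Log2 fold change (si-Snhg18 over si-NC, y axis) against mean log2 CPM over the 6 libraries (x axis) for all tested genes in gray and the zinc and copper genes in color by family. Mt1 and Mt2 have the highest CPM of the colored genes and lie near 0, and 14 gray genes fall outside the drawn range.

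Within the ZnT family, 6 of 10 genes were tested, and the 3 that act in the early secretory pathway were lower in the knockdown in every library. Of all tested genes, 30.9% had groups that did not overlap, in either direction. The 3 genes were grouped by location with these results known, so their shared direction adds no support. ZnT5 and ZnT6 form a heterodimer and ZnT7 a homodimer, and these complexes bring zinc into the Golgi, where enzymes such as alkaline phosphatases receive it. Slc30a5 (ENSMUSG00000021629, chr13:100802648-100833427 on GRCm38, minus strand) was at 61.0, 62.0 and 65.0 CPM in the si-NC libraries and at 38.9, 39.6 and 42.0 CPM in the si-Snhg18 libraries. Its groups did not overlap, and its level fell to 64.0% of si-NC (62.7 ± 2.06 to 40.1 ± 1.64 CPM, SD, n = 3; log2 fold change -0.64, SE 0.07, adjusted p = 0.0092). Libraries of the same number differed by -0.65, -0.65 and -0.63 on the log2 scale. Such pair differences, here and below, follow the numbers alone, since the labels do not say that these libraries belong together.

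Slc30a7 (chr3:115938973-116007406, minus strand) was at 64.5, 74.1 and 68.7 CPM in si-NC and at 38.2, 43.6 and 40.1 CPM in si-Snhg18. It fell to 58.8% (69.1 ± 4.84 to 40.6 ± 2.73 CPM, SD, n = 3; log2 fold change -0.77, SE 0.09, adjusted p = 0.010), again with groups apart and with pair differences of -0.75, -0.77 and -0.78. The library numbered 2 was the highest of its group on both sides. Slc30a6 (chr17:74395608-74424221, plus strand), the partner of Slc30a5 and the least abundant of the 3 genes per length, was at 14.8, 15.6 and 15.3 CPM in si-NC and at 10.6, 12.7 and 9.26 CPM in si-Snhg18. Its groups did not overlap either, but its adjusted p was 0.091 (log2 fold change -0.49, SE 0.14), and 0.024 with the block. Summed over the 3 genes, the level was 140, 152 and 149 CPM in si-NC and 87.7, 95.8 and 91.4 CPM in si-Snhg18, a ratio of 0.623. Since each of the 3 was already known to be lower, this sum is a description only.

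The calls of Slc30a5 and Slc30a7 were lost without si-NC 1 (adjusted p = 0.076 and 0.066), without si-NC 3 (0.077 and 0.076) and without si-Snhg18 3 (0.078 and 0.083), by edgeR's quasi-likelihood test, while their log2 fold changes stayed within -0.68 to -0.61 and -0.82 to -0.71. In the plot of transporters by library, which holds only genes called in either fit, the separation of the groups can be read for each gene.

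**Figure D3:**
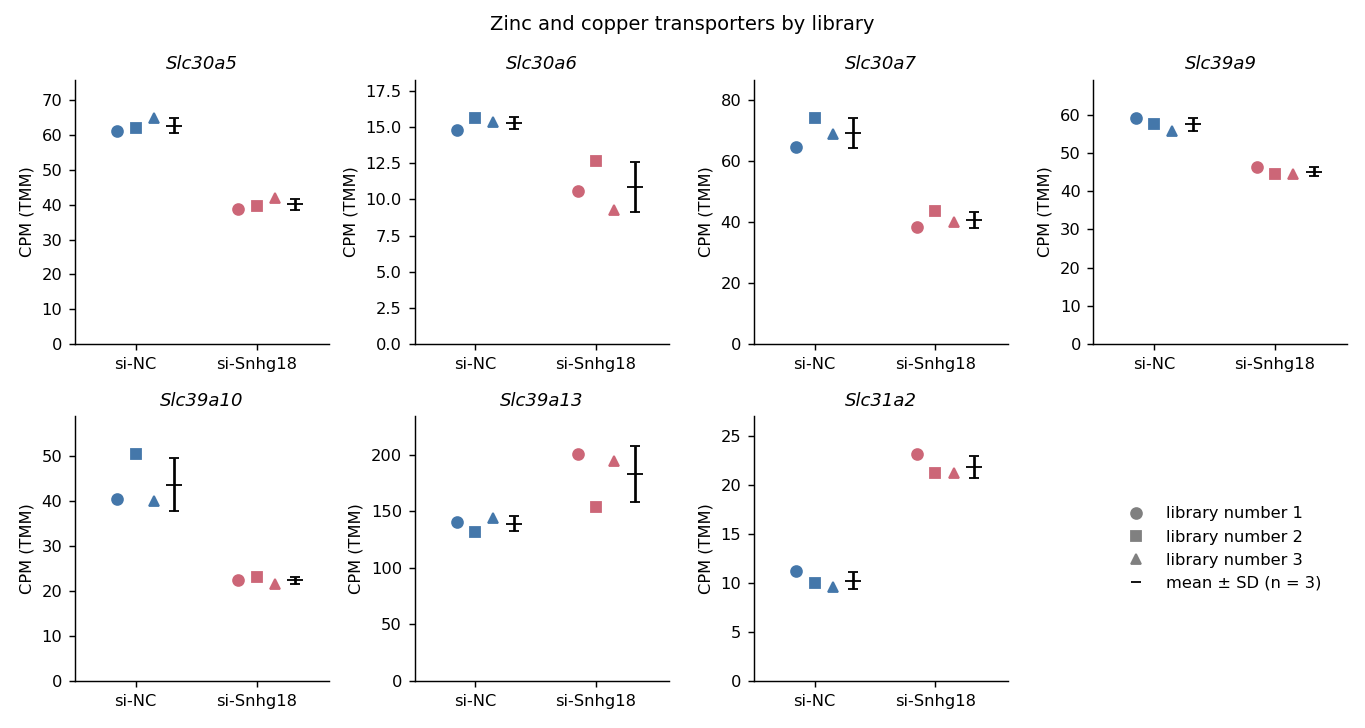
CPM normalized by TMM (y axis, from 0) of the 7 zinc and copper transporter genes called in either fit, in the si-NC and si-Snhg18 libraries (x axis), with 1 symbol per library number and black bars for mean ± SD (n = 3). Slc31a2 and Slc39a13 are higher in every si-Snhg18 library and the other 5 genes lower, without overlap.

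The other tested ZnT genes did not pass either fit. Slc30a1, the exporter of the plasma membrane and a textbook target of MTF1, was at 50.9 ± 6.29 CPM in si-NC and 58.8 ± 9.48 CPM in si-Snhg18 (SD, n = 3; log2 fold change 0.21, adjusted p = 0.43). Slc30a4, which fills vesicles, was at 188 ± 24.9 and 208 ± 45.7 CPM. It was the most abundant ZnT gene per length by the union of annotated exons, while Slc30a7 was by the deposited exon lengths. Slc30a9, a mitochondrial zinc transporter, was at 105 ± 2.03 and 116 ± 9.08 CPM. The groups of Slc30a1, Slc30a4 and Slc30a9 overlapped. The summed CPM of the whole family overlapped between groups too, at 462 to 518 in si-NC and 406 to 515 in si-Snhg18.

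A promoter window from RefSeq (GRCm38.p6), running from 250 bases before to 50 after an annotated start, was read for 29 of the 34 genes. In these windows 2 motifs were searched on both strands, and matches on opposite strands may share bases. One was the core of the metal response element that MTF1 binds, TGCACNC or TGCGCNC. The other was TGACGTGG, the unfolded protein response element bound by the stress factors XBP1 and ATF6. The first was found in 18 of the genes' 34 windows (52.9%) and in 25.7% of all 32851 windows, and the second in 4 of the 34 and in 0.676% of all windows. A match is a description of the letters and not a site in use. Both motifs were held by Slc30a5, which fell, by Slc39a13, which passed as higher with the block, and by Atp7a, which did not pass. The windows of Slc30a5 and Slc39a13 are shown. The capitals mark the matches, and both windows are on the minus strand, at chr13:100833378-100833677 and chr2:91070266-91070565.
Slc30a5: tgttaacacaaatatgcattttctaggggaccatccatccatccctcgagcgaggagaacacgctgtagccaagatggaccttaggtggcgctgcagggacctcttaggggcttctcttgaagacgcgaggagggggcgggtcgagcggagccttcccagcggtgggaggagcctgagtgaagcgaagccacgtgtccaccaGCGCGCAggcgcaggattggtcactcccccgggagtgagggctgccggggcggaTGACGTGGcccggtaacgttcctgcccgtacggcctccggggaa
Slc39a13: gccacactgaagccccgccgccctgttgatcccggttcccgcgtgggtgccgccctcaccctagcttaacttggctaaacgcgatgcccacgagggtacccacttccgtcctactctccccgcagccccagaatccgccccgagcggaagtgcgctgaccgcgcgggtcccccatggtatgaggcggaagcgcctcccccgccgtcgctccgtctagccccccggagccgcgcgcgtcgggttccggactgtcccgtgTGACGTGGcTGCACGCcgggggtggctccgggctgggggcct

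The windows of Slc30a6, Slc30a7, Slc39a9 and Slc39a10 held neither motif. The second motif was also found in 1 of the windows of Slc39a5.

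Of the 14 ZIP genes, 10 were tested, and 2 fell, beside 3.71% of all genes called lower. Slc39a10, which imports zinc at the plasma membrane (ENSMUSG00000025986, chr1:46807544-46892852, minus strand), had the largest fall of the 26 genes. It was at 40.5, 50.4 and 40.1 CPM in si-NC and at 22.4, 23.1 and 21.5 CPM in si-Snhg18, so that every knockdown library was far below every control library. The level fell to 51.2% (43.7 ± 5.87 to 22.4 ± 0.807 CPM, SD, n = 3; log2 fold change -0.96, SE 0.11, adjusted p = 0.011). Pair differences were -0.85, -1.12 and -0.90, the widest in the libraries numbered 2, where the si-NC value was highest.

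Slc39a9, a ZIP protein of the Golgi (chr12:80643883-80683342, plus strand), was at 59.3, 57.5 and 55.8 CPM in si-NC and at 46.4, 44.5 and 44.4 CPM in si-Snhg18. The fall to 78.4% was small but even (57.5 ± 1.72 to 45.1 ± 1.12 CPM, SD, n = 3; log2 fold change -0.35, SE 0.07, adjusted p = 0.033), with pair differences of -0.35, -0.37 and -0.33. It shares 4.52% of its exonic bases with Erh on the opposite strand, which was at 71.1 ± 1.92 and 67.3 ± 4.28 CPM (adjusted p = 0.55, edgeR's quasi-likelihood test). The call of Slc39a9 held without si-Snhg18 2 (adjusted p = 0.023) and was lost without any other single library (adjusted p = 0.074 to 0.17). That of Slc39a10 was lost without si-NC 1 (0.066), si-NC 3 (0.070) or si-Snhg18 3 (0.083).

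Slc39a13, a zinc transporter of the Golgi and nearby vesicles whose loss causes a connective tissue disorder, was at 141, 131 and 144 CPM in si-NC and at 200.4, 154 and 194 CPM in si-Snhg18. All knockdown values were above all control values, and the library numbered 2 was the lowest in each group. Its adjusted p was 0.087 (139 ± 6.64 to 183 ± 25.1 CPM, SD, n = 3; log2 fold change 0.40, SE 0.11) and 0.0071 with the block, by edgeR's quasi-likelihood test. It overlaps Psmc3 on the opposite strand over 4.42% of its exonic bases, and Psmc3 was at 146 ± 3.28 and 143 ± 8.02 CPM.

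Slc39a1, the most abundant ZIP gene per length and an importer of the plasma membrane, was at 185 ± 2.48 and 204 ± 4.36 CPM (SD, n = 3; log2 fold change 0.14, adjusted p = 0.20), with groups that did not overlap. Slc39a11, which is found in the Golgi, was at 26.2 ± 2.79 and 23.0 ± 1.51 CPM, with every knockdown library below every control library and an adjusted p of 0.34. The other 5 tested ZIP genes had groups that overlapped. They were Slc39a3 at 23.7 and 24.7 CPM, Slc39a6 at 179 and 165 CPM, Slc39a7 at 4.95 and 4.64 CPM, Slc39a8 at 13.2 and 14.2 CPM and Slc39a14, which also carries iron and manganese, at 113 and 117 CPM. Slc39a7, the ZIP of the endoplasmic reticulum, shares 80.7% of its exonic bases on the same strand with the transcript Gm20427, to which 0 reads were assigned, so its own level is uncertain. The summed CPM of the ZIP family overlapped, at 760 to 804 in si-NC and 737 to 866 in si-Snhg18.

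Taking the ZnT and ZIP genes of the endoplasmic reticulum and Golgi together, 3 of 7 fell, beside 3.71% of all genes called lower. Since ZnT proteins fill these compartments and ZIP proteins empty them, the list mixes both directions of transport. With the block, 4 of the 7 were lower and 1, Slc39a13, was higher, beside 13.6% of all genes in each direction. The grouping by location was made with these results known, so nothing is read from these counts.

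8 genes had too few reads for a test. Slc30a8, the zinc transporter of insulin granules, Slc39a5 and Slc39a12 had 0 reads in every library. Slc30a3, known from synaptic vesicles, and Slc30a10, a manganese exporter, had at most 1 read, and Slc30a2 at most 2. Slc39a4, the zinc importer of the gut, had 0 to 7 reads and Slc39a2 had 2 to 9. For a gene at 0 reads, a level of up to 0.115 to 0.164 CPM remains possible in a library by counting error.

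The metallothioneins Mt2 and Mt1 were the most abundant of all these genes per length, and their groups overlapped. Mt2 (chr8:94172664-94173568, plus strand) was at 751, 779 and 752 CPM in si-NC and at 748, 849 and 817 CPM in si-Snhg18 (760.4 ± 16.2 and 805 ± 51.5 CPM, SD, n = 3; log2 fold change 0.08, SE 0.07, adjusted p = 0.52). The lowest and the highest of the 6 values were both in si-Snhg18. Its neighbor Mt1 (chr8:94179082-94180327, plus strand) was at 686, 723 and 663 CPM in si-NC and at 686, 710.3 and 745 CPM in si-Snhg18 (691 ± 30.1 and 714 ± 29.6 CPM, SD, n = 3; log2 fold change 0.05, SE 0.07, adjusted p = 0.71). Mt3, known from the brain, was at 1.25, 0.817 and 1.78 CPM and at 1.86, 0.615 and 1.10 CPM, from 16 to 47 reads, which leaves its difference unresolved (log2 fold change -0.10, SE 0.49, adjusted p = 0.92, edgeR's quasi-likelihood test).

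None of the 3 metallothioneins had an unadjusted p under 0.05, and none passed an adjusted p of 0.05 with the block, with DESeq2 or in the other alternatives. The sum of the 3 was 1417 to 1503 CPM in si-NC and 1436 to 1562 CPM in si-Snhg18. Per length of exon, Mt2 stood at 1293 ± 27.5 and Mt1 at 554 ± 24.1 CPM per kilobase (RPKM) in si-NC, beside 78.4 ± 1.05 RPKM for Slc39a1, the highest of the transporters. By the deposited lengths Mt2 and Mt1 stood at 1488 and 1258 RPKM, so the distance between them depends on the length used. For Mt1 the union of exons was 1246 bases and the deposited length 549 bases. The antisense transcript Gm45774 covers 73.5% of the exonic bases of Mt2 and held 29 reads in all 6 libraries.

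Both promoters are shown as those of the metallothioneins that MTF1 is known to switch on. Of the 29 genes with a window, 7 held 2 or more metal response element cores in 1 window, with 3 in Slc30a4 and in Slc30a10. Of all windows, 7.11% held 2 or more. In Slc30a10 the matches at bases 18 to 24 and 19 to 25 lie on opposite strands and share bases. Mt2 held 4 matches, and 0.517% of all windows held 4 or more. Mt1 held 3, and 1.97% of all windows held 3 or more. The windows lie on the plus strand at chr8:94172368-94172667 and chr8:94178839-94179138, with matches on either strand in capitals.
Mt2: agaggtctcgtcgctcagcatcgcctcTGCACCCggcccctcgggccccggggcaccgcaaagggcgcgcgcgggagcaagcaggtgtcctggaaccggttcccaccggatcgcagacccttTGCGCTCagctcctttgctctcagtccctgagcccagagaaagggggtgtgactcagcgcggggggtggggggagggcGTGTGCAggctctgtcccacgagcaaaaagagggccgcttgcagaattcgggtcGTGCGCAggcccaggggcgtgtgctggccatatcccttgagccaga
Mt1: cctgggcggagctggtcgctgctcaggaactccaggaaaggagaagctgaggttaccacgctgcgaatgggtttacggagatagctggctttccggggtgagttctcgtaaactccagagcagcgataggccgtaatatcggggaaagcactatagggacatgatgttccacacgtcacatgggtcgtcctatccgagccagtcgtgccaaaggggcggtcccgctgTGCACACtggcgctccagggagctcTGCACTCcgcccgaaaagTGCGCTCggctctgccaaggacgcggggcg

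Mtf1, which encodes the factor that binds these elements, was at 34.5, 32.9 and 38.8 CPM in si-NC and at 31.1, 30.0 and 30.2 CPM in si-Snhg18. The values of the knockdown were all lower than those of the control, but the difference did not pass (35.4 ± 3.05 and 30.4 ± 0.592 CPM, SD, n = 3; log2 fold change -0.22, SE 0.09, adjusted p = 0.20, and 0.11 with the block). In the plot of metallothioneins and copper genes by library, Mt1 and Mt2 show the 2 groups side by side, and Atp7b shows the widest scatter.

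**Figure D4:**
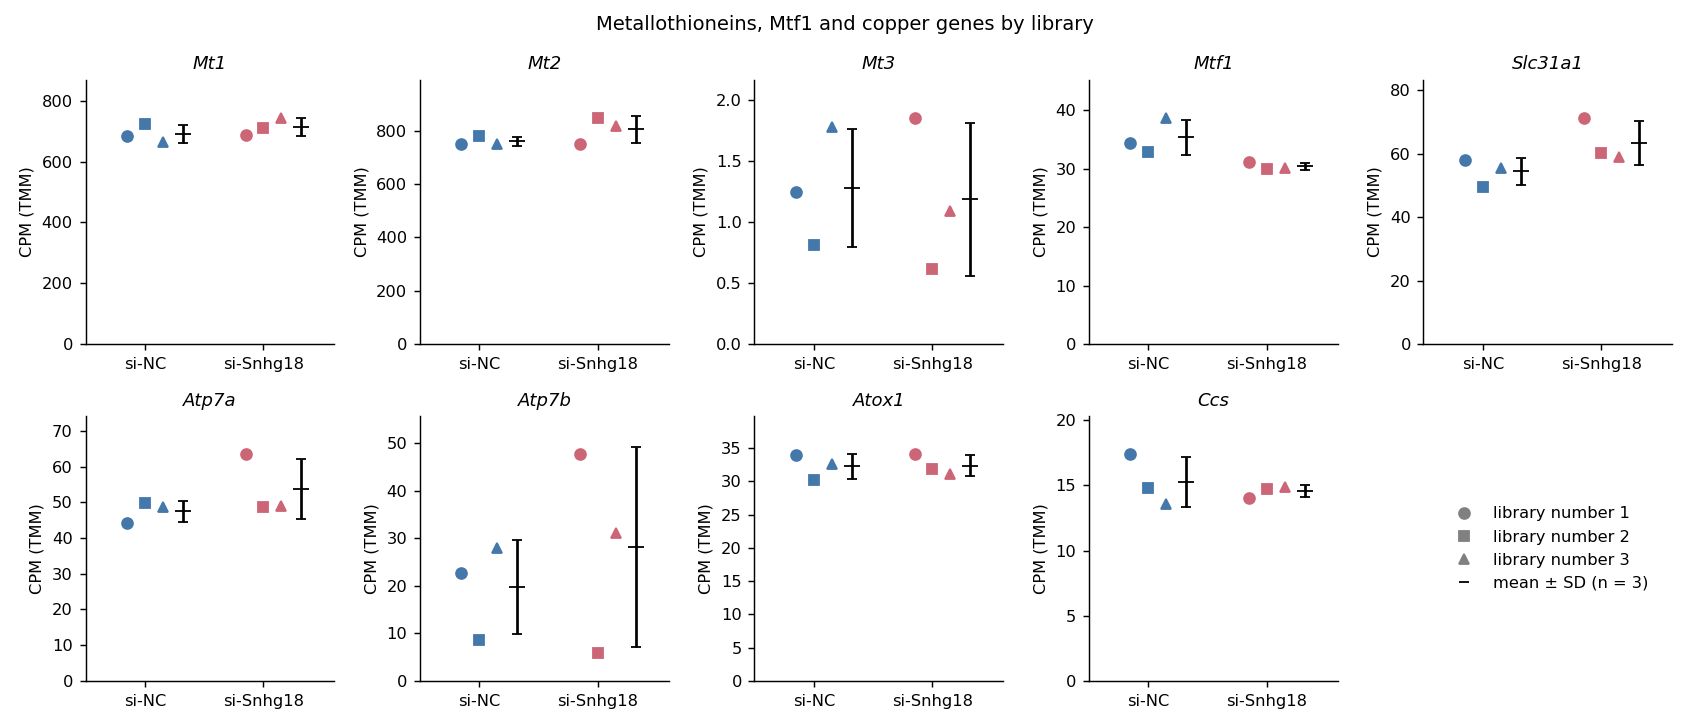
CPM normalized by TMM (y axis, from 0) of the 3 metallothioneins, Mtf1 and 5 copper genes in the si-NC and si-Snhg18 libraries (x axis), with 1 symbol per library number and black bars for mean ± SD (n = 3). Mtf1 and Slc31a1 have groups that do not overlap, and none of the 9 genes passed the test in either fit.

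Other genes tied to MTF1 or metal stress were listed with results known. Of these 11 genes, 2 rose, beside 3.65% of all genes, and 3 passed as higher with the block, beside 13.6% of all genes. The median log2 fold change was 0.21. Gclc, the catalytic subunit of the enzyme that starts glutathione synthesis, rose from 71.3 ± 4.44 to 123 ± 20.0 CPM (SD, n = 3; log2 fold change 0.78, adjusted p = 0.023). Fth1, the ferritin heavy chain that stores iron, rose from 1810.2 ± 61.6 to 2672 ± 122 CPM (log2 fold change 0.56, adjusted p = 0.011). Selenow, a small selenoprotein, was at 314 ± 16.0 and 384 ± 33.4 CPM with groups apart, and passed with the block (adjusted p = 0.015, edgeR's quasi-likelihood test). Hmox1, which breaks down heme and was abundant, was at 804 ± 77.5 and 830 ± 139 CPM. Of 6 genes linked to glucocorticoids, 1 fell, beside 3.71% of all genes, and 2 were lower with the block, beside 13.6% of all genes. Sgk1, a kinase, fell from 613 ± 21.1 to 437 ± 25.0 CPM (log2 fold change -0.49, adjusted p = 0.017), and Zbtb16 was lower with the block alone (adjusted p = 0.048, edgeR's quasi-likelihood test).

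Of the 6 copper genes, 1 rose, beside 3.65% of all genes called higher. Slc31a2, or CTR2, sits mainly on endosomes and lysosomes and is related to the importer CTR1 (ENSMUSG00000066152, chr4:62262562-62298411, plus strand). It was at 11.2, 9.96 and 9.62 CPM in si-NC and at 23.2, 21.3 and 21.3 CPM in si-Snhg18, with no overlap. The level rose to 213% (10.3 ± 0.846 to 21.9 ± 1.11 CPM, SD, n = 3; log2 fold change 1.09, SE 0.11, adjusted p = 0.0076), from 227 to 586 reads per library. This was the largest change among the 26 genes, and the pair differences of 1.05, 1.09 and 1.15 were close to each other. The call was lost without si-NC 1 (adjusted p = 0.066), without si-NC 3 (0.070) and without si-Snhg18 3 (0.078), by edgeR's quasi-likelihood test, with log2 fold changes of 1.05 to 1.16 over the 6 fits without 1 library.

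The RefSeq start of Slc31a2 lies inside the gene's span in the count table, and its window is shown as that of the gene with the largest rise. At chr4:62286179-62286478 on the plus strand it held 1 metal response element core, in capitals, near its upstream end.
Slc31a2: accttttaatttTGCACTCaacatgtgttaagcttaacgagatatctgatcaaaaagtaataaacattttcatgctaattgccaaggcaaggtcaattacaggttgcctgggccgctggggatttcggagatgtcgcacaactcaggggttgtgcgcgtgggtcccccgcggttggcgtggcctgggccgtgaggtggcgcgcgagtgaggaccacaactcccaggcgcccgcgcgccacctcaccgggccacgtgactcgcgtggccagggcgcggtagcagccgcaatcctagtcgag

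Its neighbor Slc31a1, or CTR1, which brings copper into the cell, was at 58.1, 49.6 and 55.5 CPM in si-NC and at 71.4, 60.1 and 58.8 CPM in si-Snhg18. The lowest knockdown value was just above the highest control value, and the difference did not pass (54.4 ± 4.34 and 63.4 ± 6.91 CPM, SD, n = 3; log2 fold change 0.22, SE 0.11, adjusted p = 0.26, and 0.057 with the block). The window of Slc31a1 held neither motif.

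Atp7a, the copper pump of most tissues, was at 44.2, 49.8 and 48.6 CPM in si-NC and at 63.5, 48.8 and 48.9 CPM in si-Snhg18, where library 1 alone stood above the control values (log2 fold change 0.18, SE 0.12, adjusted p = 0.43). Atp7b, the pump best known from liver, varied more between libraries than between groups, at 22.7, 8.70 and 27.9 CPM in si-NC and at 47.7, 5.84 and 31.2 CPM in si-Snhg18. The libraries numbered 2 were the lowest in both groups, and the pair differences were 1.07, -0.57 and 0.16 (log2 fold change 0.51, SE 0.74, adjusted p = 0.71, edgeR's quasi-likelihood test).

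Atox1, the chaperone that hands copper to both pumps, was at 33.9, 30.2 and 32.6 CPM and at 34.1, 31.8 and 31.1 CPM, a log2 fold change of 0.00 (SE 0.09, adjusted p = 0.98). At 59.6 ± 3.45 RPKM in si-NC it was the most abundant copper gene per length. Ccs was at 17.4, 14.8 and 13.6 CPM and at 14.0, 14.8 and 14.9 CPM (log2 fold change -0.07, SE 0.12, adjusted p = 0.78, edgeR's quasi-likelihood test). The groups of both genes overlapped.

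The lists of other copper and zinc genes were also compiled with results known. Of 17 copper-dependent enzymes and carriers, 13 were tested and 1 rose, a share near the 7.36% of all genes called, and 6 of the 13 passed with the block, beside 27.2% of all genes. The gene that rose was Pam, which amidates peptides in the secretory pathway (378 ± 18.3 to 515 ± 20.9 CPM, SD, n = 3; log2 fold change 0.44, adjusted p = 0.020). With the block Heph, a copper-dependent iron oxidase, was also higher, and Sod3, Lox, Cp and F5 were lower, with adjusted p of 0.0021 for Sod3 and 0.0014 for Lox, while their groups overlapped. Sod3 was at 265 ± 89.5 and 169 ± 68.1 CPM, and Lox at 2274 ± 568 and 1532 ± 531 CPM. Both are enzymes that ATP7A is known to supply with copper. Of 10 genes that deliver copper to cytochrome oxidase in mitochondria, 10 were tested and none was called. Slc25a3, the copper and phosphate carrier, was the 1 with an unadjusted p under 0.05, beside 3613 of all 14531 tested genes. It passed with the block only, as lower (546 ± 63.1 and 401 ± 70.8 CPM, adjusted p = 0.0043, edgeR's quasi-likelihood test), beside 13.6% of all genes.

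Among 13 genes listed under other copper handling, 12 were tested, 1 rose and 2 fell, and 5 passed with the block, beside 7.36% and 27.2% of all genes. Nothing is read from this count, since the list was compiled with results known and is not specific to copper. Steap2, a metalloreductase that prepares copper and iron for uptake, fell from 386 ± 8.46 to 251 ± 12.3 CPM (SD, n = 3; log2 fold change -0.62, adjusted p = 0.0086). Mmgt1, named as a membrane magnesium transporter, fell from 48.8 ± 3.44 to 32.9 ± 2.94 CPM (log2 fold change -0.57, adjusted p = 0.026). Xiap, an inhibitor of apoptosis that binds copper, rose from 92.5 ± 1.31 to 122 ± 11.5 CPM (log2 fold change 0.40, adjusted p = 0.041). Steap1 and Steap4 were lower with the block alone, the latter from 2 to 67 reads per library.

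Among 10 genes of other zinc handling, 8 were tested, 3 rose and 1 fell, and 8 passed with the block, beside 7.36% and 27.2% of all genes. The list was compiled with results known, so nothing is read from its count. Tmem163, a vesicular zinc transporter outside both families, rose from 8.09 ± 0.447 to 17.6 ± 3.04 CPM (SD, n = 3; log2 fold change 1.12, adjusted p = 0.015). Trpm7, a channel that passes zinc and magnesium, rose from 111 ± 6.33 to 151 ± 5.43 CPM (log2 fold change 0.44, adjusted p = 0.020). Car2, a zinc enzyme that hydrates carbon dioxide, rose from 3.64 ± 1.27 to 13.9 ± 5.62 CPM (log2 fold change 1.93, adjusted p = 0.033). Slc41a1, mainly a magnesium transporter, fell from 56.9 ± 0.765 to 35.1 ± 3.34 CPM (log2 fold change -0.70, adjusted p = 0.013, edgeR's quasi-likelihood test). With the block Trpa1 was also higher and the zinc receptor Gpr39, Cacna1c and Cbwd1 were lower. In the plot of called genes of these lists, none has groups that overlap. They were drawn because they were called, so this adds nothing, and 30.9% of all tested genes had groups that did not overlap.

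**Figure D5:**
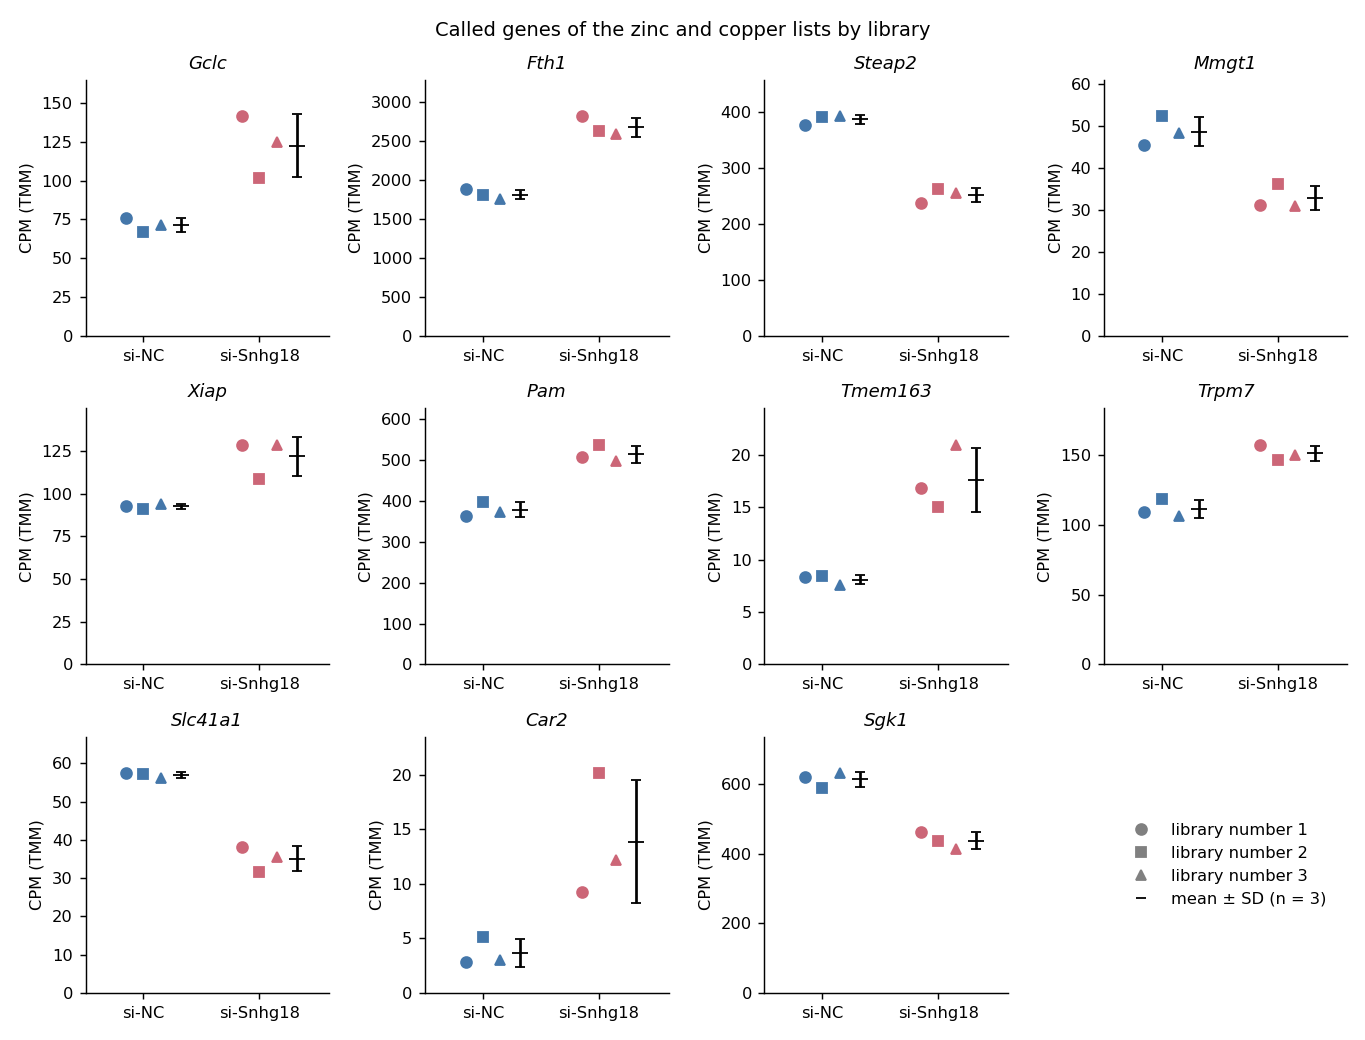
CPM normalized by TMM (y axis, from 0) of the 11 genes called in the lists of other zinc, copper, MTF1-linked and glucocorticoid-linked genes, in the si-NC and si-Snhg18 libraries (x axis), with 1 symbol per library number and black bars for mean ± SD (n = 3). Gclc, Fth1, Xiap, Pam, Tmem163, Trpm7 and Car2 are higher in every si-Snhg18 library, and Steap2, Mmgt1, Slc41a1 and Sgk1 lower.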

How the data were processed

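TruSeq Stranded mRNA libraries were sequenced from mPASMCs that had received si-NC or si-Snhg18, 3 libraries per group. The authors deposited whole-number counts of reads per gene, without normalization, with gene positions on GRCm38 (mm10) and an exon length, whose definition is not given. HISAT2 is named in the submitters' processing notes, while the counting program and its strand setting are not given in the sources used here, so reads shared by overlapping genes may be divided in a way the counts do not show. Groups and library numbers came from the sample labels, and 0 rows lacked a gene name.

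The groups were compared by the quasi-likelihood test of edgeR 4.0.16 (glmQLFit, glmQLFTest) under R 4.3.3, after filterByExpr (minimum count 10) and TMM normalization. P-values were adjusted by Benjamini-Hochberg over the 14531 genes left, with a threshold of 0.05. CPM values were scaled by TMM factors, and RPKM values used the union of exons in GENCODE vM21, since the deposited lengths of some genes differ widely from it. Deviations from the group means correlated between libraries of the same number (r = 0.41, 0.74 and 0.36 across genes, each above 0.1), and the number was used as a block in a second fit. Libraries of different numbers gave r of -0.66 to 0.50, and si-NC 3 correlated more with si-Snhg18 1 (0.50) than with its own number, so the values set the libraries numbered 2 apart but do not pair 1 and 3 by number. Alternatives used DESeq2 1.42.0 and limma 3.58.1, other normalizations, filters and thresholds, and fits without single libraries. Floors cover counting error only.

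The genes and the lists of related genes and markers were chosen with earlier results of these data known. All 34 genes are accounted for, and library values are given for those called in either fit, the metallothioneins, Mtf1 and the copper genes. From the lists, genes called in either fit are named, with at most 3 others each by level per length, beside markers at or near 0 reads. Promoter windows were taken from RefSeq (GRCm38.p6).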

Additional observations from a re-analysis of the deposited data

How the results depend on the processing

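Fits without 1 library called 0 to 3282 of all genes, 0 to 2 of the zinc and copper genes higher and 0 to 5 lower, with a median log2 fold change of -0.033 to 0.049. The counts of 0 came without si-NC 1, si-NC 3 or si-Snhg18 3, and 3282 genes were called without si-Snhg18 2. Slc30a5, Slc30a7, Slc39a10 and Slc31a2 were called in 3 of these 6 fits and in 10 of 10 other settings, and Slc39a9 in 1 and 8. Zinc and copper genes called higher and lower numbered 2 and 5 with DESeq2 (2069 of all genes), 4 and 8 with sample weights (6049 genes, median 0.0167), 2 and 5 with the replicate block (3954 genes) and 2 and 5 at an adjusted p under 0.10 (1964 genes). Without both libraries numbered 2, a setting chosen after seeing the data, they numbered 4 and 5 (4020 genes). With at least a 1.5-fold change added, 533 genes were called, 1 higher and 3 lower among the zinc and copper genes, where Slc39a9 was not called. The cause of these differences was not tested. Among the zinc and copper genes, the block changed the calls of Slc30a6 and Slc39a13 alone.

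Some log2 fold changes changed sign, with none called, most of them near 0 and that of Atp7b at 0.51. Atox1 was at -0.0759 with sample weights, -0.0093 without a filter on low counts and -0.0325 without both libraries numbered 2, and Slc39a3 at -0.0723 with sample weights. Over the fits without 1 library, values ran from -0.0431 to 0.0376 for Atox1, -0.141 to 0.034 for Ccs, -0.0744 to 0.278 for Slc39a8, -0.60 to 0.22 for Mt3, -0.0931 to 0.163 for Slc39a3, -0.10 to 1.00 for Atp7b, -0.0296 to 0.154 for Slc39a14 and -0.15 to 0.0014 for Slc39a7. Genes with few reads, Mt3 above all, are limited by depth.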

Other observations

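In the control cells, levels per length of exon differed widely within each family. Among the zinc importers, Slc39a1 stood at 78.4 ± 1.05 RPKM (SD, n = 3), Slc39a6 at 43.9 ± 4.17, Slc39a13 at 28.5 ± 1.36 and Slc39a14 at 10.7 ± 0.608 RPKM, while Slc39a8 was at 1.72 ± 0.413 RPKM. Among the ZnT genes, Slc30a4 stood at 34.3 ± 4.54 RPKM, and Slc30a1, Slc30a5, Slc30a9 and Slc30a7 followed at 9.71 ± 1.20, 8.59 ± 0.283, 8.47 ± 0.164 and 6.22 ± 0.436 RPKM. The levels of Slc30a1, Slc30a5 and Slc30a9 lay within the spread of Slc30a1 between libraries.

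The copper chaperone Atox1 was at 59.6 ± 3.45 RPKM and the importer Slc31a1 at 12.7 ± 1.01 RPKM. The copper pumps Atp7a and Atp7b were lower, at 5.44 ± 0.340 and 3.04 ± 1.53 RPKM. Slc31a2 stood at 5.05 ± 0.416 RPKM in si-NC and 10.8 ± 0.547 RPKM in si-Snhg18, where Slc31a1 was at 14.8 ± 1.62 RPKM. By the deposited lengths, Slc31a2 stood at 13.8 RPKM in si-NC and 29.5 RPKM in si-Snhg18, and Slc31a1 at 14.6 and 17.1 RPKM. Exon length depends on the annotation, and so does the order of some genes. By the deposited lengths, Slc30a7 at 52.1 RPKM stood above Slc30a4 at 34.4 RPKM in si-NC. Slc39a13 at 56.2 RPKM likewise stood above Slc39a6 at 46.1 RPKM. For Slc39a10 the union of exons was 6095 bases and the deposited length 565 bases, so its level per length is less certain than its change.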
